A study of Mus musculus with 10 samples.

Results

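The 8 genes described here, named for surface markers of the LY6 family and of prostate progenitor cells, were followed through both RNA-seq tables of a study of Arid1a, the DNA-binding subunit of a SWI/SNF chromatin remodelling complex. The members were Ly6a, Ly6c1, Ly6c2, Ly6d, Ly6e, Psca, Trp63 and Prom1, that is 8 of the 48897 rows of each table, found by symbol. They were selected on their measured differences between Arid1a KO and control libraries in these same tables. Their own values are therefore given as a description. Calls and p-values from the test run on all genes are printed for them too. These are no evidence about the members, and nothing is read from how many of them passed a threshold. All 8 had a row in both tables. All 8 reached a mean of at least 0.5 in the prostate epithelium, and 4 of 8 did in the Myc-CaP cells.

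The epithelium came from 3-month-old C57BL/6 mice as EpCAM+ and CD45- sorted cells, 3 libraries per group lettered A, B and C. The mice of the second group carried Arid1aPC-/-, where PC marks deletion by a Cre driven from the Probasin promoter, which is active in prostate epithelial cells. Mice of both groups were genetically engineered beyond this, in the same way, so the control mice were not wild type. Myc-CaP, a prostate cancer line of FVB mice driven by a Myc transgene, gave 2 empty vector libraries and 2 Arid1a KO libraries made by CRISPR with lentiviral guide RNAs, all from 1 cell line. Epithelium values were RPKM (reads per kilobase of gene and per 1000000 mapped reads) and Myc-CaP values TPM (length-scaled values that sum to 1 fixed total in every library), so levels were compared between genes within a table, and no level or fold change was compared by a test between the tables.

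Members of the LY6 family are small proteins folded around a set of disulfide bonds and mostly tethered to the outer face of the membrane by a lipid (GPI) anchor. In the mouse, Ly6a encodes Sca-1, used to sort prostate and blood stem and progenitor cells, while Ly6c1 and Ly6c2 encode the near-identical Ly6C antigens of endothelial cells, monocytes and lymphocytes. Several family members are induced by interferons. Ly6d and Psca (prostate stem cell antigen) mark subsets of luminal prostate cells, and Ly6d is also known from early B cells and stratified epithelia. Trp63 and Prom1 are not LY6 genes. Trp63 encodes the nuclear transcription factor p63 that defines basal cells, so it is not a surface marker, and Prom1 encodes prominin 1 (CD133), a pentaspan protein of membrane protrusions used to sort progenitor cells.

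The 6 LY6 genes lie within 1 cluster on chromosome 15. On GRCm38 (GENCODE M21) the order was Psca (74714839 to 74717069), Ly6d (74762056 to 74763620), Ly6e (74955051 to 74959905), Ly6a (74994877 to 74998031), Ly6c1 (75044018 to 75048830) and Ly6c2 (75108158 to 75111970). Psca and Ly6e are on the plus strand and the other 4 on the minus strand. Trp63 is on chromosome 16 (25683763 to 25892102, plus strand) and Prom1 on chromosome 5 (43993620 to 44102032, minus strand).

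Ly6c1 and Ly6c2 are shown first in sequence, because they are neighbours with almost the same coding sequence and opposite differences in the epithelium. Their coding sequences in GENCODE M21 (transcripts Ly6c1-201 and Ly6c2-201) were each 393 bases long, for 131 residues, and were identical at 384 bases (97.7%), with a longest identical run of 188 bases. The first 90 coding bases held 6 of the 9 differences, shown in capitals.
Ly6c1: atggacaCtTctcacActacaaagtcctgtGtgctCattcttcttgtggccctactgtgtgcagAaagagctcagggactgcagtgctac
Ly6c2: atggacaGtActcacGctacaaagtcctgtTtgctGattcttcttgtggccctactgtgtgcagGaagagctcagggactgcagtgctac
Reads from stretches without such a difference cannot be assigned to 1 of the genes. Of all 100-base words in the protein-coding transcripts of Ly6c1, 10.1% also occurred in a transcript of another gene, and for Ly6c2 the share was 14.9%. With 50-base words these shares were 32.8% and 31.2%. Ly6a, whose coding sequence was identical to that of Ly6c1 at 83.7% of 393 aligned bases, shared 1.45% of its 100-base words. Ly6d, Ly6e, Psca, Trp63 and Prom1 shared 0% at either length. The values of Ly6c1 and Ly6c2 are uncertain to that extent.

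Upstream of their start sites the pair had diverged further. The 250 bases before the outermost RefSeq start (GRCm38.p6) are given for both genes, with capitals for bases that differ or have no partner in the alignment. They cover chr15:75048838-75049087 for Ly6c1 and chr15:75111972-75112221 for Ly6c2, both on the minus strand.
Ly6c1: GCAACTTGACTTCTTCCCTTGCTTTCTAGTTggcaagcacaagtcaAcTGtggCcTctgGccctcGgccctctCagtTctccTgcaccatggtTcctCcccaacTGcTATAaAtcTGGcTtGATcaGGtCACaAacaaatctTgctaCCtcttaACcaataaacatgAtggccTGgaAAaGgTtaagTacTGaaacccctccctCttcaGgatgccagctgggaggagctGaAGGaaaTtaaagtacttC
Ly6c2: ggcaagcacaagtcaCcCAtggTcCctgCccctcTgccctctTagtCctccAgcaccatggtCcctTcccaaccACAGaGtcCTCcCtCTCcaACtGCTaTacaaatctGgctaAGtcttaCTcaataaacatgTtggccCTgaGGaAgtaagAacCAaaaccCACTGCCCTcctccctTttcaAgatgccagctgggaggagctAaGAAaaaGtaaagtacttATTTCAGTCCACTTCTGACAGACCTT
Of 216 aligned bases 164 were identical (75.9%). Both strands were searched for the TATA box motif TATAAA, for the CCAAT box, for the gamma-activated site TTCNNNGAA (GAS) and the core of the interferon-stimulated response element (ISRE, GAAA repeated after a gap of 2 bases). The Ly6c1 window held 1 TATAAA, starting 143 bases before the start, and 1 CCAAT, starting 95 bases before it. The Ly6c2 window held neither. Across the windows of 27025 genes, 13% held TATAAA and 34.5% held CCAAT. Neither interferon motif was found in the window of Ly6c1, Ly6c2 or Prom1, and 7.14% and 3.05% of all windows held the GAS and the ISRE core. Prom1 had 1 CCAAT. A match or its absence describes letters in this window only. Promoter sequence for the other 5 members was not used here.

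Depth could be estimated only roughly, and the estimates were of similar size in all libraries. Steps between low values put the epithelium libraries at about 29.0 to 35.9 and the Myc-CaP libraries at about 27.1 to 30.6, in units of 1000000 reads, as estimates only, since no more than 25.4% of the low values gave a whole number of reads (within 0.05), so no counting interval is given and a gene without signal is called listed at 0. Arid1a checked the labels. In Myc-CaP it was 60.5 and 61.0 TPM with empty vector and 39.5 and 40.3 TPM in Arid1a KO. In the epithelium it was 27.8, 21.9 and 26.5 RPKM in controls A, B and C and 31.1, 28.8 and 30.8 RPKM in the libraries labelled Arid1a KO, so it was not reduced there. A value over the whole gene need not show the loss of a floxed exon, but the label is not borne out by the RNA level of this gene. The libraries of this group are therefore called the libraries labelled Arid1a KO. The paper also stained prostate sections for ARID1A protein, which was not examined here. All 6 epithelial markers were present in the epithelium, with Epcam at 183 RPKM or more in every library. In Myc-CaP the defining ones were absent or nearly so, with Epcam and Krt18 listed at 0 in both empty vector libraries and at 0.658 TPM or less in Arid1a KO, and Cdh1 at 0.386 TPM or less in all 4, while Cldn3 was at 697 TPM or more, and Krt8 was at 1.07 and 0.790 TPM with empty vector and at 38.8 TPM or more in Arid1a KO. Markers of other cells were present in the epithelium. The summed value of 8 seminal vesicle genes was 19459 to 21963 RPKM in the controls and 647 to 1631 RPKM in the libraries labelled Arid1a KO, and that of 6 leukocyte genes 792 to 819 and 942 to 1012 RPKM, in spite of the CD45- gate. Their part in the values below was not tested. Differences between whole populations of cells can reflect fewer cells of a type or less RNA per cell, and these cannot be told apart here.

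In the epithelium the members did not move as 1 group. Ly6a, Ly6c1, Ly6e and Prom1 were lower in every library labelled Arid1a KO than in any control, Ly6c2, Ly6d and Psca were higher in every one, and the Trp63 values overlapped. By limma across all genes, 7 of 8 were called at an adjusted p under 0.05, 3 higher and 4 lower, against 57.1% of the 16275 genes tested (27.5% higher and 29.6% lower). For 7 of 8 no value of one group fell within the other, which held for 66.7% of all genes tested. The median log2 fold change of the members was -0.48 and that of all genes -0.03. Of all calls 48.1% were higher. After rescaling the libraries to the same summed RPKM, the share was 64.6% and the median of all genes 0.11, and the same 7 members were called with the same signs. Since the members were chosen on this contrast, nothing is read from these counts.

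**Figure D1:**
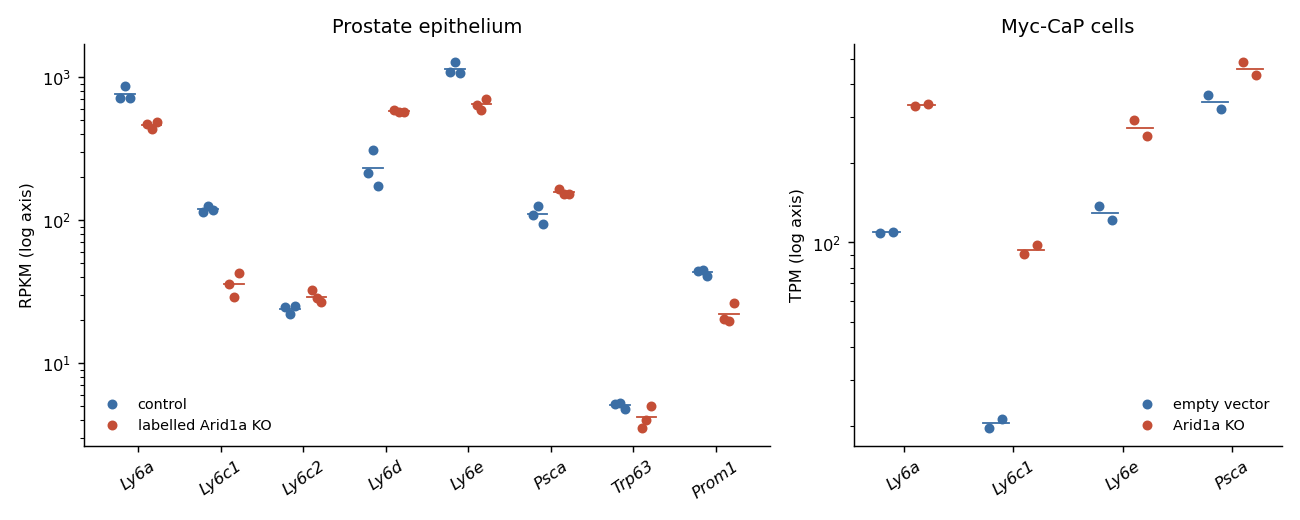
Levels of the members by library, in RPKM for prostate epithelium (left, 8 genes) and TPM for Myc-CaP cells (right, the 4 genes whose mean reached 0.5), both on log axes. Points are libraries and bars are group means. Ly6a, Ly6c1 and Ly6e sit lower in the libraries labelled Arid1a KO in the epithelium and higher in Myc-CaP Arid1a KO, while Psca sits higher in both.

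Ly6e, a GPI-anchored protein known from thymocytes and from restriction of virus entry, was the most abundant member in the epithelium. It stood at 1084, 1273 and 1078 RPKM in controls A, B and C and at 644, 593 and 708 RPKM in the libraries labelled Arid1a KO. The means were 1145 ± 111 and 648 ± 57.6 RPKM (SD, n = 3 each), a level 1.77-fold lower (log2 fold change -0.82, SE 0.11). The lowest control was above the highest library labelled Arid1a KO by a wide margin compared with either group's SD.

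Ly6a came next. It was 717, 864 and 720.1 RPKM in the controls and 468, 437 and 487 RPKM in the libraries labelled Arid1a KO. Its mean was 1.65-fold lower (767 ± 83.8 against 464 ± 25.0 RPKM, log2 fold change -0.72, SE 0.10). Control B was the highest library for both Ly6a and Ly6e, and the groups were apart with and without it. The ratio of Ly6a to Ly6e was 0.661, 0.678 and 0.668 in the controls and 0.727, 0.737 and 0.687 in the libraries labelled Arid1a KO.

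Ly6c1 showed the widest separation. Controls held 114, 126 and 117 RPKM and the libraries labelled Arid1a KO 35.8, 29.1 and 42.7 RPKM. This was a 3.32-fold lower mean (119 ± 5.98 against 35.9 ± 6.82 RPKM, log2 fold change -1.72, SE 0.13). Endothelial cells carry Ly6a and Ly6c1 in mice, so 10 endothelial markers were set beside both. Of these, 2 rose, 1 fell and 7 were not called, with a median log2 fold change of 0.21. Their summed level was 70.0 to 84.1 RPKM in the controls and 69.9 to 89.2 RPKM in the libraries labelled Arid1a KO, and none was at 0. The range of the endothelial sum overlapped between groups, and the part of endothelial cells in the Ly6a and Ly6c1 values was not tested.

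Ly6c2, the copy known from monocytes and memory T cells, went the other way. It was 24.8, 22.0 and 24.9 RPKM in the controls and 32.4, 28.5 and 26.6 RPKM in the libraries labelled Arid1a KO, with means of 23.9 ± 1.65 and 29.2 ± 2.99 RPKM (log2 fold change 0.27, SE 0.09). The gap between the highest control and the lowest library labelled Arid1a KO was smaller than the SD of the latter. Its call was lost on leaving out control A, B or C or KO library A or B, with adjusted p-values of 0.053 to 0.0997 by limma, and without a filter on low values. Markers of the cells that carry it were called too, where 27.5% of all genes tested were called higher and 29.6% lower. All 8 monocyte and macrophage genes rose, and their sum was 2291 to 2677 RPKM in the controls and 4086 to 4787 RPKM in the libraries labelled Arid1a KO. Of 6 T cell genes 3 rose and 0 fell (sum 18.7 to 24.1 and 28.3 to 31.7 RPKM). Of 8 neutrophil genes tested, out of 10, 4 rose and 1 fell (sum 403 to 554 and 747 to 981 RPKM). Ly6g, counted among the risers, reached the minimum mean of 0.5 only through the libraries labelled Arid1a KO. At a minimum mean of 5, 5 neutrophil genes were tested, 3 higher and 0 lower. None of these markers was at 0 in all 6 libraries, and their part in the Ly6c2 values was not tested. As a result of the opposite differences, the ratio of Ly6c1 to Ly6c2 was 4.60, 5.71 and 4.70 in the controls and 1.10, 1.02 and 1.61 in the libraries labelled Arid1a KO. Both copies had overlapping ranges in the latter.

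Ly6d was the member with the largest increase in level. It measured 212, 310.3 and 174 RPKM in the controls and 592, 571 and 569 RPKM in the libraries labelled Arid1a KO. The mean was 2.49-fold higher (232 ± 70.5 against 577 ± 13.0 RPKM, log2 fold change 1.35, SE 0.19). The controls differed among themselves more than the other group did, and still every control was below every library labelled Arid1a KO. Ly6d stood below Ly6a in the controls and above it in the libraries labelled Arid1a KO.

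Psca followed at a lower level. It was 109, 125 and 94.7 RPKM in the controls and 164, 153 and 153 RPKM in the libraries labelled Arid1a KO (means 110 ± 15.4 and 156 ± 6.37 RPKM, log2 fold change 0.52, SE 0.10). No libraries overlapped. B cells can carry Ly6d, and urothelium both Ly6d and Psca. Of 6 B cell and plasma cell genes 5 rose, and their sum was 144 to 160.1 RPKM in the controls and 462 to 811 RPKM in the libraries labelled Arid1a KO. Of 6 urothelium genes 2 rose and 4 fell (median log2 fold change -0.58), with sums of 106 to 132 and 72.4 to 120.4 RPKM. None of the 12 was at 0, and their part in the Ly6d and Psca values was not tested.

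Prom1 stood 1.95-fold lower in mean level. It was 44.2, 44.5 and 40.4 RPKM in the controls and 20.4, 19.8 and 26.1 RPKM in the libraries labelled Arid1a KO (means 43.0 ± 2.26 and 22.1 ± 3.47 RPKM, log2 fold change -0.94, SE 0.11). KO library C stood nearest to the controls but well below them. Trp63, the least abundant member, was 5.20, 5.26 and 4.80 RPKM in the controls and 3.53, 4.0 and 4.99 RPKM in the libraries labelled Arid1a KO (means 5.08 ± 0.25 and 4.17 ± 0.75 RPKM, log2 fold change -0.24, SE 0.11). KO library C lay within the control range, and Trp63 was not called. Without that library the log2 fold change of Trp63 was -0.35 and it passed the threshold (adjusted p = 0.0159 by limma). In the other 12 of 13 alternative analyses Trp63 was not called. After rescaling to the same summed RPKM its log2 fold change was -0.10 (adjusted p = 0.490 by limma).

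Both groups kept Ly6e first and Trp63 last in the order of levels. The controls ran Ly6e, Ly6a, Ly6d, Ly6c1, Psca, Prom1, Ly6c2 and Trp63, and only Ly6c1 and Psca had overlapping ranges among neighbours. The libraries labelled Arid1a KO ran Ly6e, Ly6d, Ly6a, Psca, Ly6c1, Ly6c2, Prom1 and Trp63, with overlap only between Ly6c1 and Ly6c2. The summed level of the 6 LY6 genes was 2262, 2720 and 2209 RPKM in the controls and 1937, 1812 and 1985 RPKM in the libraries labelled Arid1a KO. Within this sum Ly6d took 9.38%, 11.4% and 7.86% in the controls and 30.6%, 31.5% and 28.6% in the libraries labelled Arid1a KO, and Ly6e took 46.8% to 48.8% and 32.7% to 35.7%. A factor applied to a whole library leaves such shares as they are.

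**Figure D2:**
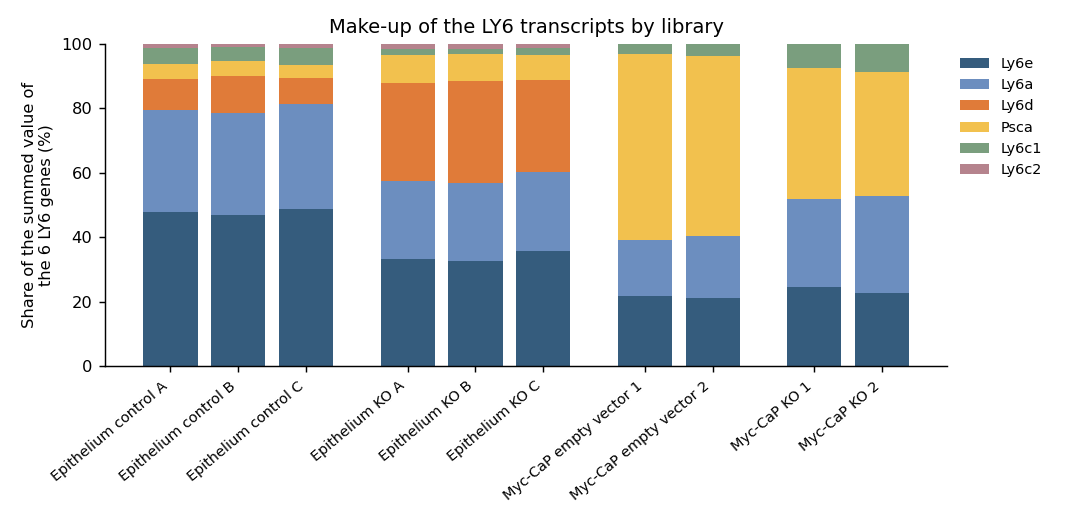
Share of the summed level of Ly6e, Ly6a, Ly6d, Psca, Ly6c1 and Ly6c2 taken by each gene, in percent, with 1 bar per library. Ly6d takes 7.86% to 11.4% in epithelium controls and 28.6% to 31.5% in the libraries labelled Arid1a KO, and Psca takes 55.9% to 57.8% with empty vector and 38.5% to 40.5% in Myc-CaP Arid1a KO.

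In Myc-CaP cells 4 members were expressed, and all of them stood higher in both Arid1a KO libraries. Ly6a, Ly6c1 and Ly6e were called higher by limma and Psca was not. Called members numbered 3 of 4 tested, with 3 higher and 0 lower, against 6.43% of the 13974 genes tested (4.54% higher and 1.89% lower). For 4 of 4 no value of one group fell within the other, which with 2 libraries per group held for 51.5% of all genes tested. The median log2 fold change of the 4 was 1.33 and that of all genes -0.01. The members were chosen on this contrast as well. The Myc-CaP replicates are not stated to come from separate cultures, so the spread between them may be technical.

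Ly6c1 had the largest fold change. It was 19.8 and 21.4 TPM with empty vector and 90.4 and 97.4 TPM in Arid1a KO, a 4.57-fold higher mean (20.6 ± 1.11 against 93.9 ± 4.97 TPM, SD, n = 2 each, log2 fold change 2.14, SE 0.08). Ly6a was 109 and 110.0 TPM with empty vector and 329 and 337 TPM in Arid1a KO (3.05-fold, log2 fold change 1.60, SE 0.05). Replicates of these genes were close compared with the difference between groups. Endothelial markers were near 0 in these cells, with 0 of 10 reaching the minimum mean, Kdr, Emcn and Cldn5 at 0 in all 4 libraries and a sum of 0.275 to 0.354 TPM with empty vector and 0.368 to 0.524 TPM in Arid1a KO.

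Ly6e was 138 and 121 TPM with empty vector and 292 and 255 TPM in Arid1a KO (2.11-fold, log2 fold change 1.07, SE 0.10). Leaving out any 1 of the 4 libraries ended its call, with adjusted p-values of 0.0690 to 0.0845 by limma at log2 fold changes of 0.97 to 1.17. Psca, the most abundant member here, was 365 and 320.5 TPM with empty vector and 484 and 432 TPM in Arid1a KO (1.34-fold, log2 fold change 0.42, SE 0.09). Replicate 1 was above replicate 2 in both groups for Ly6e and for Psca. Psca was first in both groups, and Ly6a and Ly6e changed places between them.

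The other 4 members were at or near 0 in Myc-CaP. Ly6c2 was listed at 0 in all 4 libraries. Ly6d was listed at 0 in both empty vector libraries and at 0.175 and 0.190 TPM in Arid1a KO, which corresponded to about 1.1 estimated reads in each. Prom1 was 0 and 0.0216 TPM with empty vector and 0 in both Arid1a KO libraries. Trp63 was 0.0165 and 0.0940 TPM with empty vector and 0.158 and 0.0953 TPM in Arid1a KO. No fold change is given for these. The reference genome is of a C57BL/6 background and Myc-CaP is an FVB line, and whether this bears on the mapping of the LY6 genes was not tested.

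**Figure D3:**
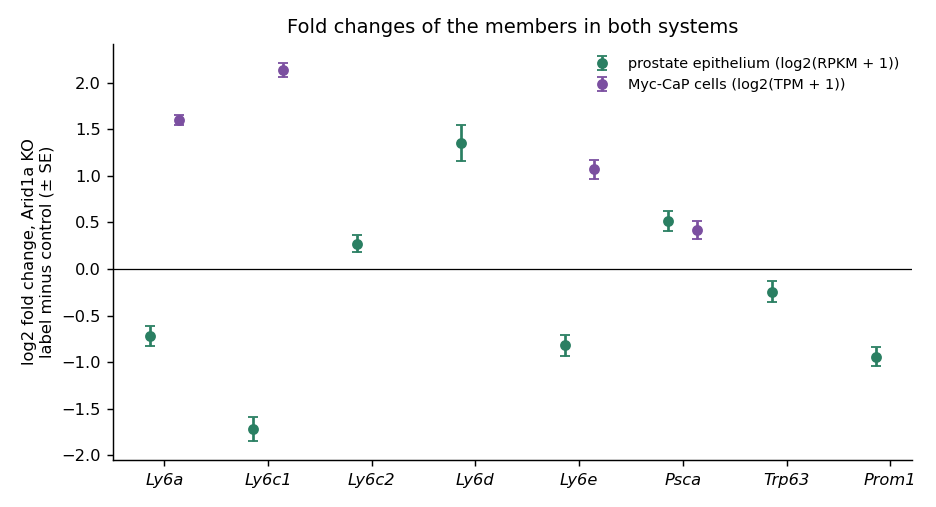
Log2 fold changes (points) with SE (bars) of each member, Arid1a KO label minus control, on the log2(RPKM + 1) scale in epithelium and the log2(TPM + 1) scale in Myc-CaP. Ly6a, Ly6c1 and Ly6e lie below 0 in the epithelium and above 0 in Myc-CaP, and Psca lies above 0 in both (0.52 and 0.42).

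Ly6a, Ly6c1 and Ly6e thus had opposite signs in the systems, side by side -0.72 and 1.60, -1.72 and 2.14, and -0.82 and 1.07 on the log2 scale. The systems share no library. They differ in strain, in the driver lesion, in how Arid1a was targeted and in the cells present, and these cannot be told apart. The difference between them was not tested, since the tables were normalized separately. Psca had the same sign in both.

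The cluster was also read along the chromosome. The choice of this window, Psca to Gpihbp1, was made after values had been seen. It spans 885 kb and held 25 protein-coding genes, 19 of them not members. In the epithelium 10 of these 19 were tested, 2 higher and 2 lower, where 57.1% of all genes tested were called. Slurp1, a secreted LY6 protein of skin, rose from 0.0768 to 1.06 RPKM. Ly6g, the neutrophil antigen, rose from 0.409 to 1.13 RPKM. Both reached the minimum mean of 0.5 only through the libraries labelled Arid1a KO. Ly6k and D730001G18Rik were called lower, and the groups overlapped for D730001G18Rik (1.45 RPKM in control C and 1.52 RPKM in KO library C). Slurp2 (0.379 to 0.0954 RPKM) and Ly6h (0.420 to 0.159 RPKM) had lower means there, did not reach the minimum and were not tested. Ly6i, between Ly6e and Ly6a, was at 2.0 and 1.88 RPKM and was not called. In Myc-CaP 5 of the 19 were tested, with Slurp1 higher, Gml2 lower and Them6, Lynx1 and Gml not called. Of all genes tested there, 6.43% were called. Slurp1 reached the minimum mean only through Arid1a KO and Gml2 only through empty vector, and 9 of the 19 were at 0 in all 4 libraries. Genes of the cluster stood on either side of 0 in both systems.

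**Figure D4:**
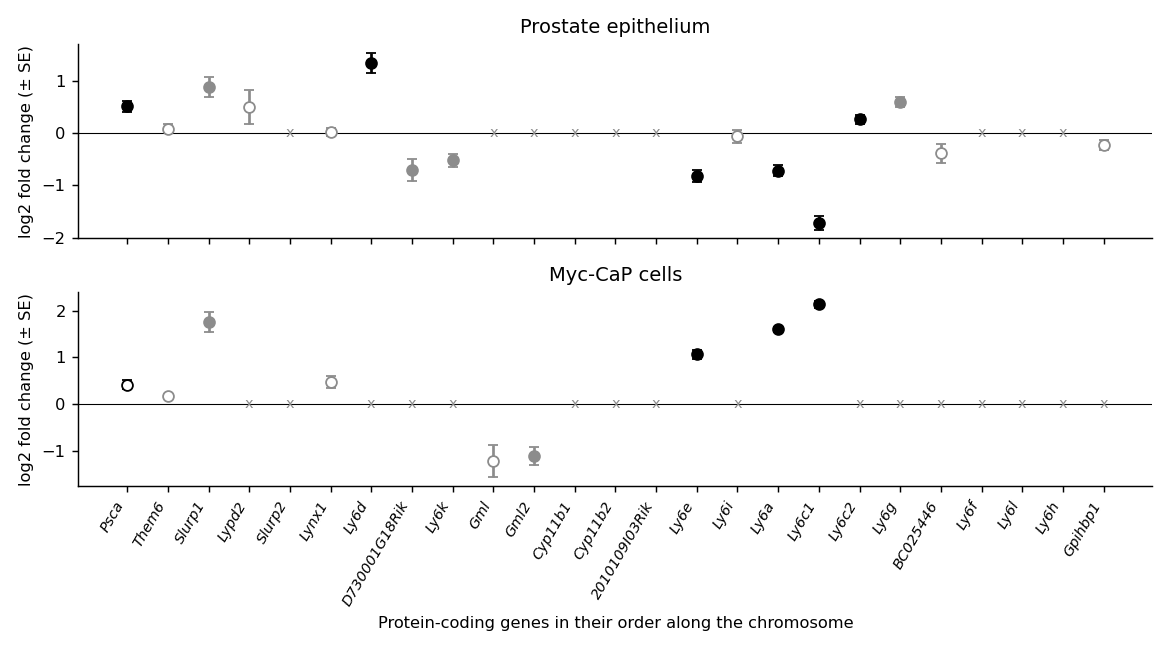
Log2 fold changes (points, bars are SE) of the 25 protein-coding genes from Psca to Gpihbp1 in their order along the chromosome, for epithelium (top) and Myc-CaP (bottom). Black marks members and grey other genes, filled points were called, open points were not, and a cross marks a gene that was not tested. Ly6e, Ly6a and Ly6c1 lie below 0 in the upper panel and above 0 in the lower one.

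Relatives outside the members were counted from lists. Of all genes tested, 57.1% were called in the epithelium and 6.43% in Myc-CaP. In Myc-CaP, leaving out any 1 library left 47 to 76 calls among all genes, and 0 in the lists of LY6/uPAR, basal, Trp63 and Prom1 relatives, so counts there rest on all 4 libraries. Of 32 further LY6/uPAR genes, 18 were tested in the epithelium, with 5 higher, 2 lower and a median log2 fold change of 0.01. Of the 5, Ly6g, Slurp1 and Pinlyp reached the minimum mean of 0.5 only through the libraries labelled Arid1a KO. Lypd6 (0.156 to 0.0119 RPKM), Lypd6b (0.291 to 0.0673 RPKM) and Cd59b (0.349 to 0.0891 RPKM) had lower means there. They did not reach the minimum and were not tested, so the counts depend on the filter. Without a filter on low values 28 were tested, 5 higher and 5 lower, with a median of -0.05. Plaur, the urokinase receptor, rose from 97.8 ± 1.83 to 253 ± 31.3 RPKM (log2 fold change 1.35 on the log2(RPKM + 1) scale). Slurp1 rose from 0.0768 to 1.06 RPKM (0.89 on that scale, where low levels show less of their fold change), while Ly6k fell from 24.0 to 16.3 RPKM and Cd59a, an inhibitor of the complement attack complex, from 2.29 to 1.18 RPKM. In Myc-CaP 7 were tested, 2 higher and 1 lower, with a median of 0.47. There Slurp1 reached the minimum mean only through Arid1a KO, and Gml2, the gene called lower, only through empty vector. Without the filter 22 were tested there, 1 higher and 0 lower, with a median of 0.06. Slurp1 (0.123 to 2.77 TPM) and Lypd3 (1.79 to 7.18 TPM), an adhesion protein of stratified epithelia, rose in Myc-CaP and also in the epithelium, where Lypd3 went from 7.64 to 13.5 RPKM.

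Interferon-induced genes were listed because Ly6a, Ly6c1 and Ly6e respond to interferons. In the epithelium 20 of 27 rose and 1 fell, with a median log2 fold change of 0.49. Mx1, an antiviral GTPase, went from 11.4 to 29.6 RPKM, Oas2 from 21.4 to 45.5 RPKM, and Cxcl10, a chemokine, fell from 118 to 93.2 RPKM. In Myc-CaP 25 of 26 tested genes rose and 0 fell, with a median of 1.30. Ifit3 went from 1.58 to 11.9 TPM, Zbp1, a sensor of nucleic acids, from 3.13 to 16.6 TPM and Isg15 from 300.03 to 779.95 TPM. Without 1 of the 4 Myc-CaP libraries, 5 to 12 of the list were called higher and 0 lower. After rescaling the epithelium to the same sum 24 of the 27 were called higher and 0 lower, so the fall of Cxcl10 depended on the scaling. In Myc-CaP Ly6a, Ly6c1 and Ly6e and these genes were called in the same direction. In the epithelium most of the list was called higher, and Ly6a, Ly6c1 and Ly6e lower.

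Basal cell genes were set beside Trp63. In the epithelium 9 of 15 rose and 2 fell, with a median log2 fold change of 0.94, while Trp63 itself was not called. Dsg3, a desmosomal cadherin, went from 0.289 to 8.08 RPKM and the basal keratin Krt14 from 146 to 799 RPKM. Dsg3 reached the minimum mean only through the libraries labelled Arid1a KO. Dsc3 fell from 2.77 to 0.807 RPKM and the Notch ligand Jag2 from 26.5 to 17.5 RPKM. With the minimum mean raised to 5, 13 basal genes were tested in the epithelium, 8 higher and 1 lower (median 0.94). Of 11 partners and relatives of Trp63, 9 were tested, 3 higher and 2 lower (median 0.13), among them Itch, a ubiquitin ligase for p63, from 9.98 to 16.4 RPKM, Ovol1 from 7.62 to 12.1 RPKM and Tfap2c from 8.40 to 2.34 RPKM. In Myc-CaP, where Trp63 was near 0, 3 of 9 basal genes tested rose and 1 fell (median 0.70). Krt15 went from 0.137 to 2.15 TPM and reached the minimum mean only through Arid1a KO. Without a filter on low values 15 basal genes were tested, 0 higher and 1 lower (median 0.21). At a minimum mean of 5, 5 were tested, 2 higher and 1 lower (median 0.21). Of 8 Trp63 partners tested 0 were called (median -0.10). By limma at an unadjusted p under 0.05, 2 of those 8 passed, and with the replicate block 2 were called.

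Progenitor genes went both ways. In the epithelium 7 of 23 rose and 10 fell (median log2 fold change -0.02), and 10 rose and 9 fell (median 0.15) after rescaling to the same sum. Nt5e (CD73) went from 6.47 to 18.0 RPKM and the luminal progenitor keratin Krt4 from 279 to 578 RPKM, while Aldh1a1, a retinaldehyde dehydrogenase, fell from 27.5 to 7.95 RPKM. In Myc-CaP 3 of 14 tested rose and 1 fell (median 0.17). Krt4 went from 3.46 to 44.3 TPM and Krt7 from 45.9 to 121 TPM, and Cd24a fell from 207 to 134 TPM. Krt4 and Krt7 were called higher and Cd24a lower in both systems. Krt19 was called lower in the epithelium (2256 to 1482 RPKM) and higher in Myc-CaP (0.207 to 3.46 TPM). In Myc-CaP it reached the minimum mean only through Arid1a KO.

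Prom1 had 8 listed relatives and partners. In the epithelium 5 were tested, 2 higher and 1 lower, with a median of -0.17. Its paralog Prom2 fell from 11.8 to 4.20 RPKM (log2 fold change -1.31), and Aldh1a3 rose from 13.7 to 26.6 RPKM. In Myc-CaP 4 were tested, 0 higher and 1 lower (median -0.21), again Prom2, which fell from 13.3 to 5.26 TPM, although Prom1 itself was near 0 there.

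**Figure D5:**
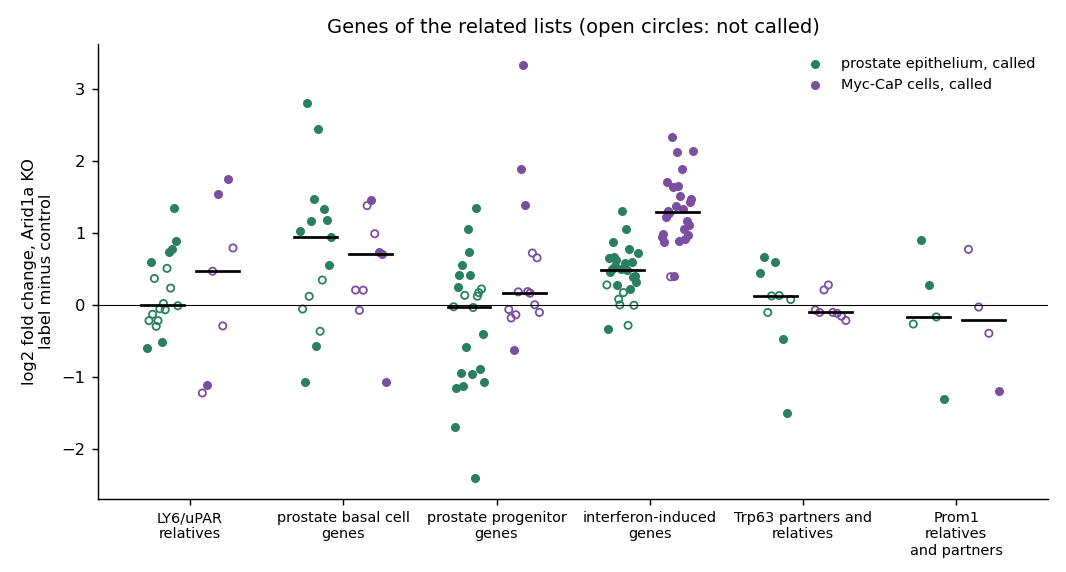
Log2 fold changes of every tested gene of 6 related lists, Arid1a KO label minus control, in epithelium (green, log2(RPKM + 1)) and Myc-CaP (purple, log2(TPM + 1)). Filled points were called, open ones were not, and black bars are list medians. The interferon-induced list has medians of 0.49 and 1.30 and the basal list 0.94 and 0.70. Without a filter on low values the basal median in Myc-CaP was 0.21.

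For the 3 most abundant members the genes with the most similar pattern over the 6 epithelium libraries were found among 9027 genes, by the root mean square difference of centred log2(RPKM + 1). Closest to Ly6e were Tmem176b (0.0184), Acaa2 (0.0211) and Tsta3 (0.0215). Ly6a had D10Jhu81e (0.0205), H2-Ke6 (0.0246) and Rpl36al (0.0327). Ly6d had Gsta4 (0.108), Aldh3a1 (0.124) and Ighv1-64 (0.129) at larger distances, and the last is an immunoglobulin segment. These are descriptions over 6 libraries that share a group difference.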

How the data were processed

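RNA-seq of 10 mouse samples was analysed, 3 and 3 from sorted prostate epithelium and 2 and 2 from Myc-CaP cells, grouped by the genotype in their labels. The study's methods name TopHat2 on GRCm38, keeping the best match of a read, and HTSeq counting, and count mice as the replicates of the epithelium, while the submitters' notes name HISAT2, HTSeq and DESeq2 with mm10. The authors deposited the epithelium as RPKM and the Myc-CaP samples as TPM. Gene lengths and annotation behind these units are not given in the sources used here. All samples carry the same growth and treatment text, so culture of the Myc-CaP samples is read from their labels.

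Values were transformed to log2(value + 1), which understates the change of low genes. Genes with a mean of at least 0.5 in a table were tested with limma 3.58.1 (eBayes with a trend) in R 4.3.3, each table on its own and without covariates. P-values are two-sided and adjusted by Benjamini-Hochberg over all genes of a table, with calls at an adjusted p under 0.05. The smallest p an exact permutation test of 3 libraries against 3 allows is 0.1. The members and all lists were chosen with earlier results of these data known. Besides the members, the text names from each list and table the 2 largest higher and 2 largest lower calls, and genes called in both tables. Counts cover whole lists, while some single genes are not reported here. Alternatives were another pseudocount, filter, scaling or variance prior, a replicate block and each library left out.

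Same-letter epithelium libraries did not deviate together (correlations 0.041, 0.009 and -0.057), and 2 Myc-CaP pairs are too few to establish pairing. Coding sequences came from GENCODE M21 and promoters from RefSeq (GRCm38.p6), where 3 of 8 members matched. Alignments used Biopython 1.88.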

Additional observations from a re-analysis of the deposited data

Results flagged for a closer look

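Ly6a, Ly6c1 and Ly6e drew attention because every library with the Arid1a KO label moved one way in the epithelium and the opposite way in Myc-CaP cells. The log2 fold changes were -0.72 and 1.60 for Ly6a, -1.72 and 2.14 for Ly6c1 and -0.82 and 1.07 for Ly6e, epithelium first. The difference between the systems was not tested, since one table is in RPKM and the other in TPM, each normalized on its own, and the systems differ in several ways at once.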

How the results depend on the processing

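The count of called members was 7 in the epithelium under 7 of the 14 alternatives, 6 without a filter on low values and without control library A, B or C or KO library A or B (Ly6c2 lost), and 8 without KO library C (Trp63 gained). In Myc-CaP it was 3 under 7 of 12 alternatives and 2 without any 1 library (Ly6e lost). No log2 fold change of a member changed sign. With the replicate block, which treats same-numbered libraries as paired, 7 epithelium members and 4 Myc-CaP members were called, Psca being added in Myc-CaP (adjusted p = 0.00104 by limma). Since the numbers do not establish pairing, this is given for completeness. Across all Myc-CaP genes, calls numbered 899, against 2771 with the replicate block, 358 without a filter on low values, 451 with eBayes without a trend and 47 to 76 without 1 library. Ly6a in the epithelium ranged from -0.76 to -0.45 and Ly6e from -0.88 to -0.57, the smallest changes under quantile normalization. Depth may limit the near-zero members in Myc-CaP, where Ly6d amounts to about 1.1 reads in a library by the rough estimate.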

Other observations

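Genes of other cell types were also called in the epithelium libraries, where 57.1% of all genes tested were called. Of 6 fibroblast genes 0 were called higher and 3 lower. Their summed level was 1683 to 2456 RPKM in the controls and 1401 to 1971 RPKM in the libraries labelled Arid1a KO. Of 5 smooth muscle genes 1 was higher and 4 lower (114 to 133 and 96.0 to 118 RPKM). The ranges of both sums overlapped between groups. Of 6 leukocyte genes 5 were higher and 1 lower, of 8 seminal vesicle genes 0 were higher and 8 lower, and of 6 epithelial genes 0 were higher and 3 lower. In Myc-CaP the sums of the leukocyte, monocyte, neutrophil, T cell and B cell lists were at most 5.52 TPM in any library, and 5 of 8 seminal vesicle genes were listed at 0 in all 4.

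The ratio of Ly6d to Psca, a pair at one end of the cluster, was 1.94, 2.47 and 1.84 in the epithelium controls and 3.62, 3.74 and 3.72 in the libraries labelled Arid1a KO. The ratio of Ly6a to Psca was 6.56, 6.88 and 7.61 and then 2.86, 2.86 and 3.19. In Myc-CaP the ratio of Ly6a to Psca was 0.297 and 0.343 with empty vector and 0.680 and 0.780 in Arid1a KO. The ratio of Ly6a to Psca thus stood lower under the Arid1a KO label in the epithelium and higher in Myc-CaP, a description of libraries whose members were chosen with these values known.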
